A study of Bos grunniens x Bos taurus and Bos grunniens with 6 samples.

Results

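Oxidative phosphorylation genes were compared between the testes of cattle-yak and yak. They were taken by gene symbol and comprised the subunits of complexes I to V, cytochrome c, the complex I assembly factors whose names begin with NDUFAF, and every gene whose symbol begins with MT-. By symbol alone, ATP5IF1 was counted with the subunits of complex V, and COX7A2L and COX7A2P2 with those of complex IV. The selection held 127 of the 18918 genes in the table, under 94 symbols. Of these, 122 genes had nuclear names and 5 had MT- names.

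RNA-seq was performed on testis of 3 cattle-yak, which were F1 males from Jersey bulls and Gannan yak cows, and of 3 purebred Gannan yak males. Every animal was 4 years old and gave 1 library, numbered 5, 6 and 7 in cattle-yak and 8, 9 and 10 in yak. The cattle-yak lived in Xiahe County and the yak in Linxia County. The labels give castration as the source of the testes, whereas the study's methods give castration for cattle-yak and euthanasia for yak. Genotype, place and possibly the way of collection thus coincided with group and cannot be told apart. The number of fragments on genes was inferred from the deposited values. It was 11175100 to 11834987 per library in cattle-yak and 12991641 to 13136129 in yak.

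Complexes I, III and IV pass electrons to oxygen and pump protons across the inner mitochondrial membrane, and complex V, the ATP synthase, uses the resulting gradient. Complex II feeds electrons from succinate and is encoded wholly in the nucleus, while the other complexes join nuclear subunits to subunits encoded by mitochondrial DNA. Male germ cells carry their own isoforms of several subunits, among them COX6B2, COX7B2 and COX8C of complex IV and the testis cytochrome c CYCT, beside isoforms found in most tissues.

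Levels are FPKM, or fragments scaled by library depth and by the length of each gene model. Per-animal values are given in the order of animals 5, 6 and 7 for cattle-yak and 8, 9 and 10 for yak. A gene was tested when its mean was at least 0.5 FPKM, and called when the Benjamini-Hochberg adjusted p of limma was under 0.05 and the log2 fold change, on log2 (FPKM + 1), was beyond 1 in either direction. This scale understates changes of genes with low values. Fold changes are those of cattle-yak against yak.

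The median log2 fold change of all 15042 genes tested was 0.51 with the values as deposited and, over those that also passed the minimum there, 0.01 after scaling the libraries by median-of-ratios size factors. The direction of a gene with a small fold change therefore depended on the scaling, and fold changes are also given relative to the all-gene median. Of all calls, 61.6% were higher in cattle-yak with the values as deposited and 38.8% after median-of-ratios scaling.

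Among the oxidative phosphorylation genes, 118 of 127 passed the minimum level. The 9 below it had means of up to 0.475 FPKM, and 8 of them were further genes of a symbol that also stood on a more abundant gene. With the values as deposited, 37 of the 118 were called higher in cattle-yak, or 31.4% against 33.4% of all genes tested, and 10 were called lower, or 8.47% against 20.8% of all genes. With median-of-ratios scaling, 21 of 119 were called higher against 17.6% of all genes, and 21 were called lower against 27.9%. The share called higher was thus close to that of all genes, and 58 genes lay above the all-gene median and 60 below it. All 10 lower calls were found with both scalings, as were 21 of the 37 higher calls.

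The selection therefore did not move as 1 block, and the groups within it differed. Summed over the 122 nuclear-named genes, the level was 16335, 14858 and 16596 FPKM in cattle-yak and 13262, 14246 and 15115 FPKM in yak. The groups overlapped, since cattle-yak 6 lay below yak 10. As a share of the summed FPKM of the library, which no scaling between libraries alters, the same genes made up 2.75%, 2.56% and 2.75% in cattle-yak and 2.23%, 2.38% and 2.47% in yak. On this share the groups did not overlap.

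**Figure D1:**
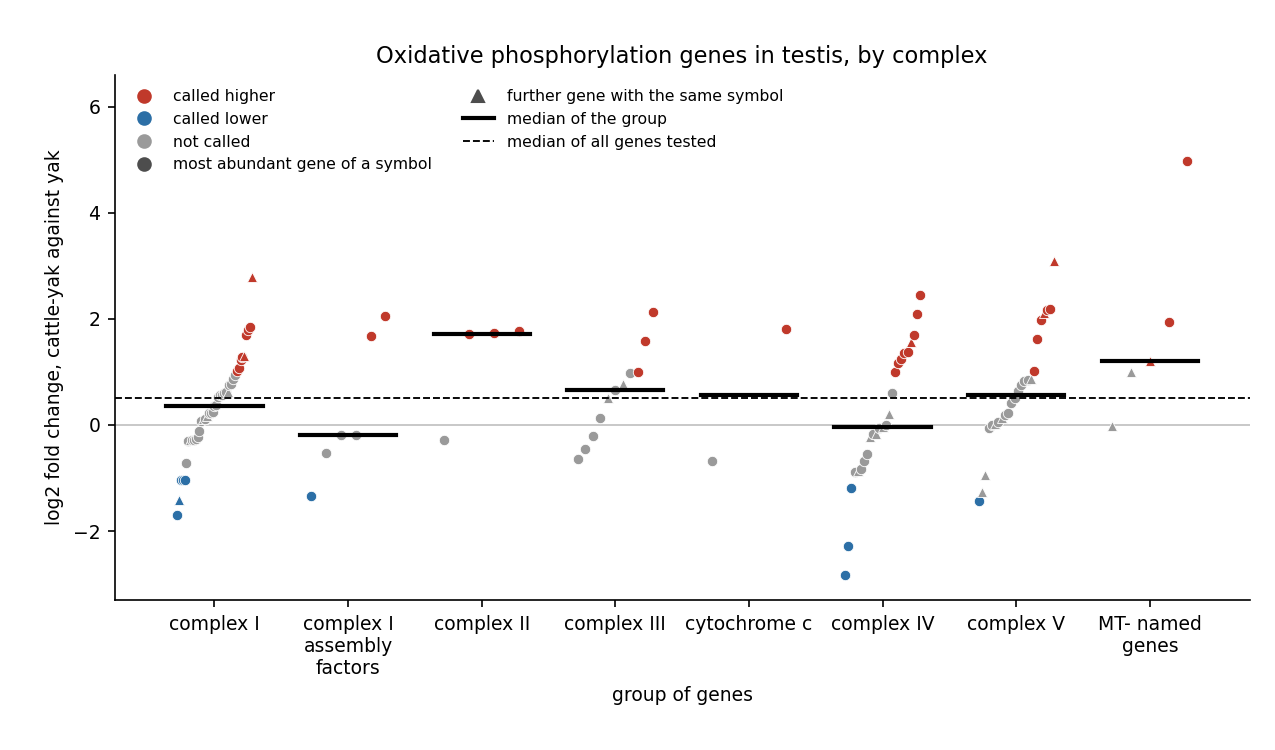
Log2 fold change (cattle-yak against yak, log2 of FPKM + 1) of each tested oxidative phosphorylation gene, by complex; each point is 1 gene, circles are the most abundant gene of a symbol and triangles further genes with it, black bars are group medians and the dashed line is the all-gene median of 0.51. Complex II lay at a median of 1.72, complex IV at -0.04 with the values as deposited and -0.57 after median-of-ratios scaling, and 1 MT-CYB gene at 4.98.

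Complex I is the entry point for electrons from NADH, and its 44 genes carried 34 symbols. Of the 41 tested, 9 (22.0%) were called higher and 5 (12.2%) lower, with a median log2 fold change of 0.36. Both shares lay below the 33.4% and 20.8% of all genes tested. With median-of-ratios scaling 4 were higher and 6 lower, against 17.6% and 27.9% of all genes, and the median was -0.22. Summed over the complex, the level was 3933, 3402 and 3772 FPKM in cattle-yak and 3436, 3509 and 3755 FPKM in yak. The complex thus had overlapping summed levels in both groups, although single subunits went in opposite directions.

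NDUFS1, which holds iron-sulfur clusters of the electron path, stood at 129, 128 and 145 FPKM in cattle-yak and 37.7, 39.8 and 37.2 FPKM in yak. The groups did not overlap, and the log2 fold change was 1.78 (SE 0.09; limma, Benjamini-Hochberg adjusted p = 8.79e-07), 1.27 above the all-gene median. The subunit with the lowest fold change was NDUFA6, at 26.9, 18.4 and 24.4 FPKM in cattle-yak and 69.9, 69.1 and 94.6 FPKM in yak. It fell by 1.70 on the log2 scale (SE 0.17; limma, Benjamini-Hochberg adjusted p = 3.17e-05) and by more with median-of-ratios scaling, at -2.30.

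The most abundant gene of complex I in yak was NDUFB2, a membrane arm subunit, with 374, 283 and 349.8 FPKM in cattle-yak and 687, 611 and 758 FPKM in yak. Every cattle-yak library lay below every yak library, with a log2 fold change of -1.03 (SE 0.13; limma, Benjamini-Hochberg adjusted p = 0.00013). A less abundant gene of the same symbol was called lower too, at -1.41, but genes that share a symbol may share reads, so its value is uncertain. The other genes called lower in complex I were NDUFA9, at 50.5 ± 7.66 FPKM in cattle-yak and 104 ± 8.76 in yak, and NDUFB4, at 213 ± 45.1 and 429.7 ± 21.2 FPKM (SD over 3 animals). These 3 main genes lay close to the fold threshold, and leaving out cattle-yak 6 brought NDUFB2 to -0.92, NDUFA9 to -0.90 and NDUFB4 to -0.89. Leaving out yak 10 did so for NDUFB2, at -0.96, and NDUFB4, at -0.99, and leaving out yak 9 for NDUFA9, at -0.96.

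The largest fold change in complex I belonged to a minor gene with the symbol NDUFA2 (ENSBGRG00000003650), at 39.4, 33.7 and 43.3 FPKM in cattle-yak and 4.09, 4.38 and 5.79 FPKM in yak. It rose by 2.79 on the log2 scale (SE 0.15; limma, Benjamini-Hochberg adjusted p = 1.19e-06), or 2.28 above the all-gene median. The most abundant NDUFA2 gene stood at 52.5 ± 8.56 FPKM in cattle-yak against 39.7 ± 4.27 in yak (SD over 3 animals), with overlapping groups. Its log2 fold change was 0.39, and -0.22 with median-of-ratios scaling, and it was not called with either. The split of fragments among the 3 genes of this symbol is uncertain.

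Of the 6 complex I assembly factors named NDUFAF, which help to build the complex and are absent from the finished enzyme, 2 were called higher and 1 lower. These shares, 33.3% and 16.7%, were close to the 33.4% and 20.8% of all genes tested. With median-of-ratios scaling 2 of the 6 were higher and 2 lower, and their median went from -0.20 to -0.76. NDUFAF3, the most abundant of them, stood at 103, 90.8 and 76.6 FPKM in cattle-yak and 223, 233 and 233 FPKM in yak, with no overlap. Its log2 fold change was -1.35 (SE 0.12; limma, Benjamini-Hochberg adjusted p = 1.34e-05). In contrast, NDUFAF6 stood at 35.5, 31.3 and 37.8 FPKM in cattle-yak and 7.75, 6.24 and 9.06 FPKM in yak, and rose by 2.05 on the log2 scale (SE 0.15; limma, Benjamini-Hochberg adjusted p = 4.62e-06). NDUFAF4 rose as well, from 10.7 ± 1.89 FPKM in yak to 36.6 ± 5.25 in cattle-yak (SD over 3 animals), with a log2 fold change of 1.68 and of 1.10 after median-of-ratios scaling.

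Complex II is succinate dehydrogenase, an enzyme that also belongs to the tricarboxylic acid (TCA) cycle. Of its 4 subunits, 3 were called higher, with both scalings, and none lower. Among all genes tested, 33.4% were called higher as deposited and 17.6% with median-of-ratios scaling. The flavoprotein SDHA stood at 125, 133 and 152 FPKM in cattle-yak and 34.7, 38.4 and 45.8 FPKM in yak, without overlap. It rose by 1.77 on the log2 scale (SE 0.13; limma, Benjamini-Hochberg adjusted p = 4.72e-06), 1.25 above the all-gene median. The membrane anchors SDHC and SDHD had log2 fold changes of 1.73 and 1.71, with 92.5 ± 5.66 against 27.2 ± 2.15 FPKM and 76.6 ± 6.21 against 22.6 ± 0.416 FPKM (SD over 3 animals).

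The iron-sulfur subunit SDHB stood apart from its partners, at 78.4, 57.5 and 73.3 FPKM in cattle-yak and 86.1, 83.1 and 82.4 FPKM in yak. Its log2 fold change was -0.28 (SE 0.13; limma, Benjamini-Hochberg adjusted p = 0.0704), or -0.89 with median-of-ratios scaling, and it was not called with either, although every cattle-yak library was below every yak library. In yak the level of SDHB, per length of gene, was above those of SDHA, SDHC and SDHD in each library, and in cattle-yak it was below SDHA and SDHC in each library.

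Complex III hands electrons to cytochrome c. Of its 11 tested genes, 3 (27.3%) were called higher and none lower, against 33.4% and 20.8% of all genes. The median log2 fold change was 0.66. With median-of-ratios scaling 1 was higher and 2 lower, against 17.6% and 27.9% of all genes, with a median of 0.28. The 3 called higher as deposited were UQCR11, CYC1 and UQCRQ. UQCR11, a small accessory subunit, stood at 226, 205 and 245 FPKM in cattle-yak and 45.9, 49.1 and 56.7 FPKM in yak, and its log2 fold change of 2.14 (SE 0.11; limma, Benjamini-Hochberg adjusted p = 9.82e-07) was called with both scalings. CYC1, the heme-bearing cytochrome c1, was at 82.9 ± 4.44 FPKM in cattle-yak against 27.0 ± 1.95 in yak (SD over 3 animals), with a log2 fold change of 1.59 that became 0.98, just under the threshold, after median-of-ratios scaling.

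UQCRQ, with a log2 fold change just above 1 and 61.4 ± 4.55 against 30.1 ± 0.398 FPKM (SD over 3 animals), sat on the threshold. It was not called without cattle-yak 5, cattle-yak 7 or yak 10, at 0.96, 0.98 and 0.99, nor with median-of-ratios scaling, at 0.40. UQCR10, the most abundant gene of the complex, stood at 549.9, 450.2 and 504 FPKM in cattle-yak and 721, 849 and 768 FPKM in yak. The groups did not overlap, yet the log2 fold change of -0.64 (SE 0.11; limma, Benjamini-Hochberg adjusted p = 0.000831) did not reach the threshold unless median-of-ratios scaling was used, with -1.26. The core protein UQCRC2 had a log2 fold change of -0.46, and of -1.07 and a call with that scaling.

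Complex IV, cytochrome c oxidase, reduces oxygen and has the largest number of tissue isoforms. Its 31 genes here, which include NDUFA4 and NDUFA4L2, carried 20 symbols, and 25 were tested. Of these, 9 (36%) were called higher and 3 (12%) lower, against 33.4% and 20.8% of all genes tested. The median log2 fold change was -0.04, or 0.55 below the all-gene median. With median-of-ratios scaling 4 were higher and 8 lower, against 17.6% and 27.9% of all genes. Summed levels overlapped, at 5673, 5155 and 5930.2 FPKM in cattle-yak and 4824, 5296 and 5509 FPKM in yak. Single isoforms nevertheless differed between the groups.

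COX6B2, the testis partner of COX6B1, stood at 28.8, 14.0 and 10.5 FPKM in cattle-yak and 117, 125 and 122 FPKM in yak. It fell by 2.83 on the log2 scale (SE 0.30; limma, Benjamini-Hochberg adjusted p = 4.18e-05). COX6B1 was at 163, 143 and 144 FPKM in cattle-yak and 149, 159 and 160.3 FPKM in yak, with overlapping groups and a log2 fold change of -0.06 that was -0.67 with median-of-ratios scaling. The testis isoform thus made up 15.0%, 8.89% and 6.76% of the pair in cattle-yak and 43.9%, 44.0% and 43.2% in yak.

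COX7B2 stood at 161, 75.7 and 85.1 FPKM in cattle-yak and 486, 503 and 506 FPKM in yak, and fell by 2.29 on the log2 scale (SE 0.25; limma, Benjamini-Hochberg adjusted p = 4.59e-05). The ubiquitous COX7B went the other way, at 229, 239 and 235 FPKM in cattle-yak and 60.1, 47.7 and 55.1 FPKM in yak, and rose by 2.09 (SE 0.10; limma, Benjamini-Hochberg adjusted p = 7.29e-07). Both calls were made with both scalings. The share of COX7B2 in the pair was 41.2%, 24.1% and 26.6% in cattle-yak and 89.0%, 91.3% and 90.2% in yak, so that the major isoform of the pair was COX7B2 in every yak and COX7B in every cattle-yak.

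COX8C differed from these 2 testis isoforms. It stood at 294, 216 and 264 FPKM in cattle-yak and 257, 262 and 245 FPKM in yak, with overlapping groups and a log2 fold change of 0.01 (SE 0.12; limma, Benjamini-Hochberg adjusted p = 0.958), which became -0.61 with median-of-ratios scaling and was not called with either. Its partner COX8A stood at 334, 415 and 464 FPKM in cattle-yak and 121, 119 and 128 FPKM in yak. COX8A rose by 1.70 on the log2 scale (SE 0.13; limma, Benjamini-Hochberg adjusted p = 5.56e-06), and COX8C accordingly made up 39.1% ± 6.72 of the pair in cattle-yak against 67.5% ± 1.62 in yak (SD over 3 animals). In this pair only the ubiquitous isoform was called.

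Among the electron carriers between complexes III and IV, the testis form CYCT stood at 38.8, 31.2 and 40.7 FPKM in cattle-yak and 71.3, 46.8 and 62.9 FPKM in yak. The groups did not overlap, but the log2 fold change of -0.68 (SE 0.17; limma, Benjamini-Hochberg adjusted p = 0.00571) stayed inside the threshold with the values as deposited and passed it with median-of-ratios scaling, at -1.29. Somatic CYCS stood at 93.2, 74.3 and 94.1 FPKM in cattle-yak and 25.3, 25.5 and 21.5 FPKM in yak, and rose by 1.81 (SE 0.13; limma, Benjamini-Hochberg adjusted p = 3.86e-06). CYCT made up 29.7% ± 0.407 of both in cattle-yak against 71.0% ± 5.48 in yak (SD over 3 animals).

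The log2 ratio of testis to ubiquitous isoform is taken within a library and hardly moves with the scaling between libraries. The difference of this ratio, cattle-yak minus yak, was -2.77 for COX6B2 to COX6B1, -4.38 for COX7B2 to COX7B, -1.69 for COX8C to COX8A and -2.49 for CYCT to CYCS. In each of the 4 pairs every cattle-yak library was below every yak library. Such separation was not special to testis isoforms. The ratios of COX4I2 to COX4I1, COX7A1 to COX7A2 and NDUFA4L2 to NDUFA4 did not overlap between groups either. Their differences were 2.07, 2.26 and -3.13. Among all genes tested, 33.4% were called higher and 20.8% lower as deposited. How often ratios of other genes separate the groups was not tested. The two-sided exact permutation test gave p = 0.1 for each of the 4 testis pairs, and 0.1 after Benjamini-Hochberg adjustment over the 4 pairs. This is the smallest value that 3 against 3 animals allow.

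**Figure D2:**
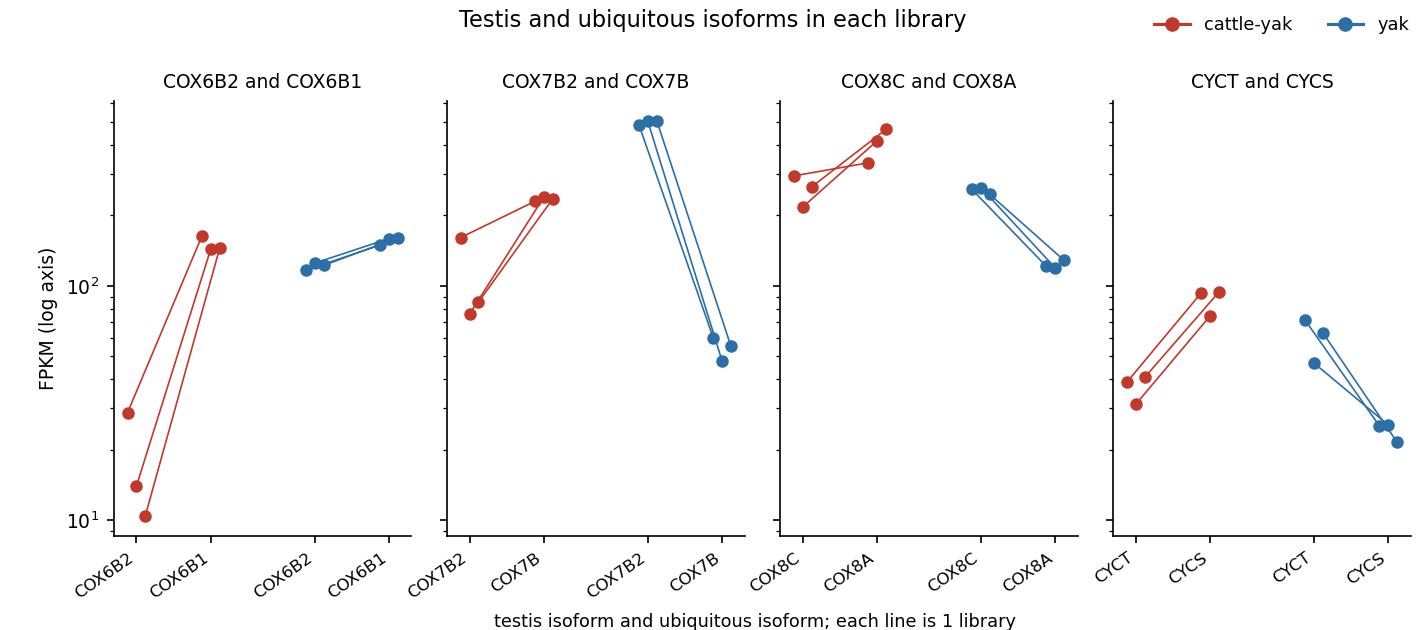
FPKM (log axis) of the testis isoform and its ubiquitous partner in 4 pairs; each line joins both isoforms of 1 library, with cattle-yak in red and yak in blue. COX7B2 lay at 486 to 506 FPKM in yak and at 75.7 to 161 FPKM in cattle-yak, while COX7B lay at 47.7 to 60.1 and at 229 to 239 FPKM, and COX8C overlapped between groups.

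Cattle-yak 5 had the highest level of COX6B2, COX7B2 and COX8C in its group, whereas CYCT was highest in cattle-yak 7. Without cattle-yak 5 the ratio differences were -3.10 for COX6B2 to COX6B1, -4.73 for COX7B2 to COX7B, -1.92 for COX8C to COX8A and -2.48 for CYCT to CYCS. In bulk tissue, fewer cells of a type and less RNA of a gene per cell cannot be told apart.

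Markers of late germ cells were lower in cattle-yak as well, with both scalings. Among all genes tested, 20.8% were called lower as deposited and 27.9% with median-of-ratios scaling. Of 6 elongating spermatid markers, 5 were in the table, and all 5 were called lower in cattle-yak with both scalings, with a median log2 fold change of -7.89. Their summed level was 68.8, 26.1 and 13.3 FPKM in cattle-yak and 9559, 8133 and 9917 FPKM in yak, with TNP1 the most abundant. Of 5 round spermatid markers, 3 were in the table and were called lower, with summed levels of 26.9, 12.5 and 5.89 FPKM in cattle-yak and 376.5, 349.0 and 409 FPKM in yak. The most abundant of them was SPACA1 in yak and SPATA16 in cattle-yak. None of these markers was at 0 in all cattle-yak libraries, and their part in the isoform result was not tested.

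The remaining isoform pairs of complex IV concern other tissues. COX4I2, a lung isoform, was at 9.13, 9.83 and 3.39 FPKM in cattle-yak and 1.81, 2.31 and 2.89 FPKM in yak, and its log2 fold change of 1.25 (SE 0.34; limma, Benjamini-Hochberg adjusted p = 0.00834) was called with the values as deposited but not with median-of-ratios scaling, at 0.76. COX4I1, the main isoform, stood at 467 ± 36.4 FPKM in cattle-yak against 829 ± 51.4 in yak (SD over 3 animals), with a log2 fold change of -0.83 that reached the threshold only with median-of-ratios scaling, at -1.45. COX4I2 remained the minor isoform, at 1.58% of the pair in cattle-yak and 0.281% in yak.

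COX7A1, typical of muscle, had 48.3, 57.8 and 61.0 FPKM in cattle-yak and 19.4, 22.6 and 20.6 FPKM in yak, with a log2 fold change of 1.37 as deposited and 0.77, without a call, after median-of-ratios scaling. COX7A2, the most abundant gene of complex IV in yak, stood at 782, 604 and 641 FPKM in cattle-yak and 1088, 1239.7 and 1428 FPKM in yak. Its log2 fold change was -0.89 (SE 0.14; limma, Benjamini-Hochberg adjusted p = 0.000449), and -1.51 with a call after median-of-ratios scaling. COX7A1 made up 7.75% ± 1.67 of this pair in cattle-yak against 1.66% ± 0.204 in yak (SD over 3 animals).

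Counting only the most abundant gene of each nuclear symbol, the largest rise was that of NDUFA4, which was long counted with complex I and is placed with complex IV here. It stood at 852, 1059 and 1120.3 FPKM in cattle-yak and 173, 183 and 196 FPKM in yak, without overlap. It rose by 2.44 on the log2 scale (SE 0.12; limma, Benjamini-Hochberg adjusted p = 7.53e-07), and by 1.83 with median-of-ratios scaling. NDUFA4L2, known for its induction in low oxygen, was a minor gene at 2.75 ± 1.27 FPKM in cattle-yak against 5.20 ± 3.04 in yak (SD over 3 animals), with overlapping groups and a log2 fold change of -0.69, and of -1.15 with a call after median-of-ratios scaling.

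COX6A1 stood at 397, 415 and 436 FPKM in cattle-yak and 150.0, 171 and 166 FPKM in yak, with a log2 fold change of 1.35 as deposited and 0.73, without a call, after median-of-ratios scaling. Its muscle partner COX6A2 was not among the genes analysed here. Besides COX6B2 and COX7B2, the gene of complex IV called lower was COX8B, an isoform of heart and muscle. It rested on 1, 0 and 0 fragments in cattle-yak and 7, 2 and 4 in yak, and its log2 fold change of -1.19 was -0.93, without a call, when yak 8 was left out.

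Complex V makes ATP. Of its 24 genes, 7 (29.2%) were called higher and 1 (4.17%) lower, against 33.4% and 20.8% of all genes tested. The median log2 fold change was 0.57. With median-of-ratios scaling 4 were higher and 2 lower, against 17.6% and 27.9% of all genes, and the median was -0.04. Its summed level was 4592, 4445 and 4861 FPKM in cattle-yak and 3241, 3538 and 3998 FPKM in yak, and these groups did not overlap. As a share of the summed FPKM of the library, complex V made up 0.781% ± 0.0204 in cattle-yak against 0.597% ± 0.0544 in yak (SD over 3 animals). With complex II, cytochrome c and the MT- genes, it was among the groups whose summed FPKM as deposited was higher in every cattle-yak library, although with median-of-ratios scaling the median fold changes of complex V and of cytochrome c were both -0.04.

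Of the 3 genes for the subunit of the membrane ring, which turns as protons pass, 2 rose and the other was not called with either scaling. ATP5MC3 stood at 337, 333 and 376 FPKM in cattle-yak and 75.1, 68.8 and 83.3 FPKM in yak, with a log2 fold change of 2.19 (SE 0.10; limma, Benjamini-Hochberg adjusted p = 5.9e-07). ATP5MC2 stood at 181, 174 and 198 FPKM in cattle-yak and 43.7, 51.4 and 28.2 FPKM in yak, with a log2 fold change of 2.18 (SE 0.20; limma, Benjamini-Hochberg adjusted p = 1.67e-05). Both encode the same mature ring subunit, and both were called with both scalings.

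In the catalytic head, the alpha subunit ATP5F1A stood at 646, 656 and 683 FPKM in cattle-yak and 212, 213 and 221 FPKM in yak, with a log2 fold change of 1.61 that ended just under the threshold of 1 with median-of-ratios scaling. The beta subunit ATP5F1B was at 436 ± 17.6 FPKM in cattle-yak against 217 ± 18.2 in yak (SD over 3 animals). Its log2 fold change of 1.01 lay on the threshold and was not called without cattle-yak 5, cattle-yak 6 or yak 8, where it was 0.99, just under 1 and 0.95, nor with median-of-ratios scaling, at 0.39. A second, minor ATP5F1A gene (ENSBGRG00000009771) had the largest fold change of all nuclear-named genes, with 31.3, 39.3 and 34.7 FPKM in cattle-yak and 1.12, 12.0 and 1.69 FPKM in yak. Its log2 fold change was 3.10 (SE 0.60; limma, Benjamini-Hochberg adjusted p = 0.00134), and it may share reads with the main gene, so its level is uncertain. Leaving out single libraries gave 2.60 to 3.91 for this gene and 2.71 to 2.92 for the minor NDUFA2 gene (ENSBGRG00000003650). Its rank therefore held with all libraries but not whenever a library was left out.

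The only gene of complex V called lower with the values as deposited was ATP5MPL, a small membrane subunit and the most abundant gene of the complex in yak. It stood at 432, 366 and 408 FPKM in cattle-yak and 918, 1038 and 1328 FPKM in yak. It fell by 1.43 on the log2 scale (SE 0.15; limma, Benjamini-Hochberg adjusted p = 3.27e-05), and by more after median-of-ratios scaling, at -2.05. Of the 24 genes of complex V, 16 were not called with the values as deposited.

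**Figure D3:**
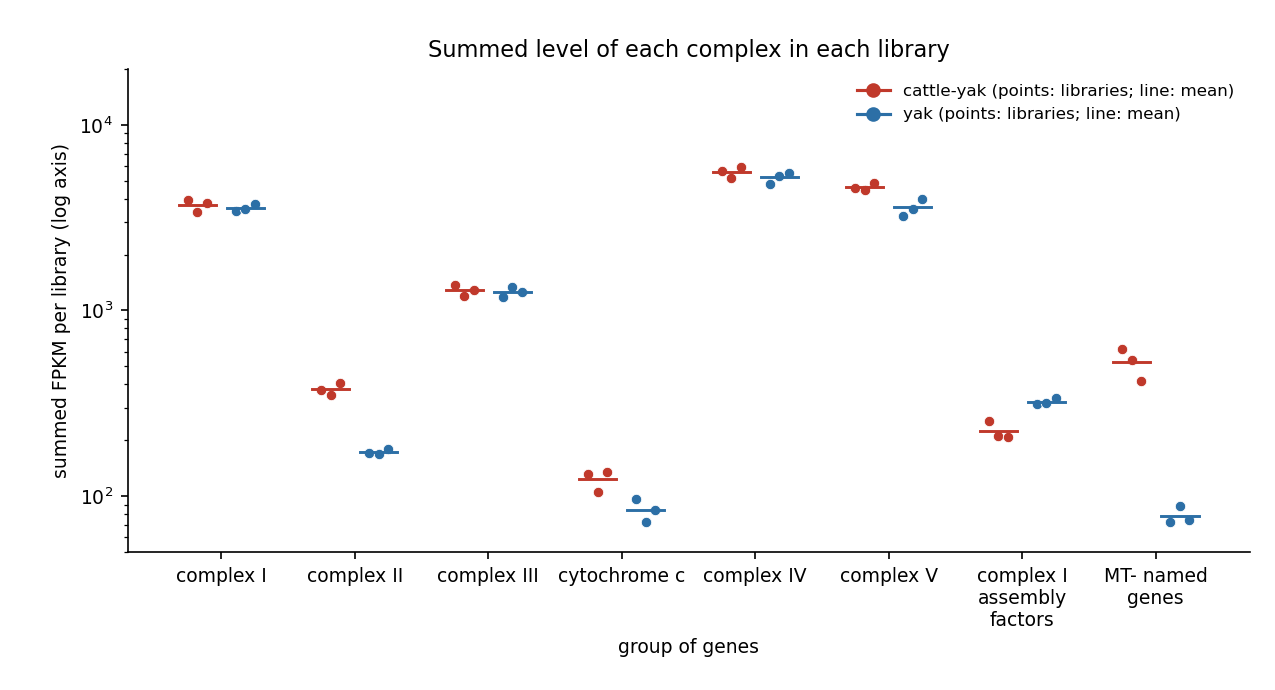
Summed FPKM (log axis) of each complex in each library; points are the 3 libraries of a group and lines are group means, with cattle-yak in red and yak in blue. Complexes I, III and IV overlapped between groups, complex II lay at 349.6 to 406 FPKM in cattle-yak and 169 to 179.6 FPKM in yak, and the MT- genes at 415 to 621 and 72.5 to 88.2 FPKM.

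Only MT-ATP6, a complex V subunit, and MT-CYB, the cytochrome b of complex III, were present under MT- names, on 3 and 2 genes. Summed over these 5 genes, the level was 621, 541 and 415 FPKM in cattle-yak and 72.5, 88.2 and 74.7 FPKM in yak. For every 100 FPKM of nuclear-named genes there were 3.80, 3.64 and 2.50 FPKM of MT- genes in cattle-yak and 0.547, 0.619 and 0.494 in yak. The MT- genes were thus higher in cattle-yak relative to the nuclear genes in each library, with both scalings, since the ratio is taken within a library.

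The main MT-CYB gene (ENSBGRG00000025837) stood at 337, 261 and 173 FPKM in cattle-yak and 11.4, 7.78 and 3.48 FPKM in yak. It rose by 4.98 on the log2 scale (SE 0.37; limma, Benjamini-Hochberg adjusted p = 5.48e-06), and by 4.40 with median-of-ratios scaling, the highest log2 fold change of all genes tested with either. Its gene model length, inferred from the values, was 2431 bases, longer than the coding sequence of cytochrome b. The main MT-ATP6 gene (ENSBGRG00000000687) stood at 272, 263 and 235 FPKM in cattle-yak and 57.7, 75.4 and 66.8 FPKM in yak, and rose by 1.94 (SE 0.12; limma, Benjamini-Hochberg adjusted p = 1.98e-06). Its model length, inferred likewise, was 264 bases, shorter than the coding sequence of that subunit, and the groups overlapped for neither gene.

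Of the remaining 3, 1 MT-ATP6 gene (ENSBGRG00000008590) was called higher, with 10.2, 11.5 and 4.57 FPKM in cattle-yak, 2.88, 2.89 and 3.21 FPKM in yak and a log2 fold change of 1.21. That call was lost without cattle-yak 6, at 0.99, and with median-of-ratios scaling, at 0.70. The other MT-ATP6 gene (ENSBGRG00000026283) rested on 5, 6 and 6 fragments in cattle-yak and 2, 3 and 0 in yak, with a log2 fold change just under 1 and no call. It was called when cattle-yak 5, yak 8 or yak 9 was left out, at 1.06, 1.06 and 1.19, and with all libraries under a pseudocount of 0.1, at 2.28, or voom, at 2.09. With TPM scaling or scaling by the sum of genes not named MT- it lay just above 1 and was called too. The minor MT-CYB gene was at 0, 3.84 and 0 FPKM in cattle-yak and 0, 1.26 and 1.27 FPKM in yak, and overlapped.

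The median of the MT- genes was 1.21, or 0.71 with median-of-ratios scaling, and that of the nuclear subunits, which leave out the assembly factors, was 0.42, or -0.15 with that scaling. Positions of the genes were not analysed here, so whether an MT- named gene lay on mitochondrial DNA or was a nuclear copy of it was not tested. The yak genome served for both groups, while cattle-yak carry the mitochondria of their yak dams and a mixed nuclear genome, and any part of the reference in these values was not tested.

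The genes around the respiratory chain were examined by lists, beside 33.4% of all genes called higher and 20.8% lower as deposited, and 17.6% and 27.9% with median-of-ratios scaling. Of 40 assembly factors of the complexes other than those named NDUFAF, 37 were tested, and 15 were called higher and 3 lower, with a median log2 fold change of 0.61. With median-of-ratios scaling 5 were higher and 4 lower and the median was 0.11, close to the all-gene median as it was with the values as deposited. SCO1, a copper chaperone of complex IV, stood at 45.3, 50.2 and 45.1 FPKM in cattle-yak and 7.76, 7.45 and 8.34 FPKM in yak, and rose by 2.43 (SE 0.11; limma, Benjamini-Hochberg adjusted p = 4.2e-07). LYRM7, which helps to insert the iron-sulfur protein of complex III, stood at 16.6, 12.7 and 11.5 FPKM in cattle-yak and 89.9, 61.0 and 95.7 FPKM in yak, and fell by 2.50 (SE 0.20; limma, Benjamini-Hochberg adjusted p = 7.32e-06). Neither gene overlapped between groups.

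Of 16 genes for the transcription and maintenance of mitochondrial DNA, 15 were tested, with 6 called higher and 2 lower and a median of 0.75, and with 3 higher and 2 lower and a median of 0.20 after median-of-ratios scaling. TFAM, which packages mitochondrial DNA and activates its promoters, was the most abundant gene of the list in yak, at 239, 209.7 and 277 FPKM, and stood at 28.9, 31.9 and 29.1 FPKM in cattle-yak. It fell by 2.97 on the log2 scale (SE 0.12; limma, Benjamini-Hochberg adjusted p = 3.05e-07). LRPPRC, which stabilises mitochondrial transcripts, went the other way, at 117, 103 and 116 FPKM in cattle-yak and 23.6, 19.0 and 22.4 FPKM in yak, with a log2 fold change of 2.32 (SE 0.11; limma, Benjamini-Hochberg adjusted p = 6.51e-07). The libraries with lower TFAM were also those with the higher sum of MT- named genes, and a link between them was not tested.

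The TCA cycle supplies the chain with NADH and succinate. Of its 14 genes, all tested, 12 were called higher and none lower, with a median of 1.69, and 8 remained higher and none was lower with median-of-ratios scaling, with a median of 1.08. Their summed level was 1363, 1398 and 1474 FPKM in cattle-yak and 519, 522 and 516 FPKM in yak. DLD, a dehydrogenase subunit, had the highest fold change, at 113, 116 and 107 FPKM in cattle-yak and 20.6, 19.3 and 20.9 FPKM in yak, with a log2 fold change of 2.41 (SE 0.09; limma, Benjamini-Hochberg adjusted p = 2.21e-07).

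Among 7 adenine nucleotide carriers and porins, 4 were called higher and 1 lower, with a median of 1.80, and 4 and 2 with median-of-ratios scaling, with a median of 1.24. SLC25A4, which exchanges ADP for ATP, stood at 309.8, 309.6 and 317 FPKM in cattle-yak and 49.9, 42.0 and 54.1 FPKM in yak, and rose by 2.66 (SE 0.11; limma, Benjamini-Hochberg adjusted p = 3.32e-07). The porin VDAC3 stood at 40.1, 35.3 and 37.6 FPKM in cattle-yak and 76.9, 92.3 and 85.2 FPKM in yak, and fell by 1.15 (SE 0.10; limma, Benjamini-Hochberg adjusted p = 1.64e-05). Of 6 regulators of mitochondrial biogenesis, 5 were tested and 3 were called higher, with a median of 1.14, of which 1 was higher with median-of-ratios scaling, with a median of 0.55. PPRC1 had the highest log2 fold change among them, 1.66, with 19.6 ± 1.38 against 5.50 ± 0.405 FPKM (SD over 3 animals), and PPARGC1B the lowest, -0.38, with overlapping groups under 2 FPKM.

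**Figure D4:**
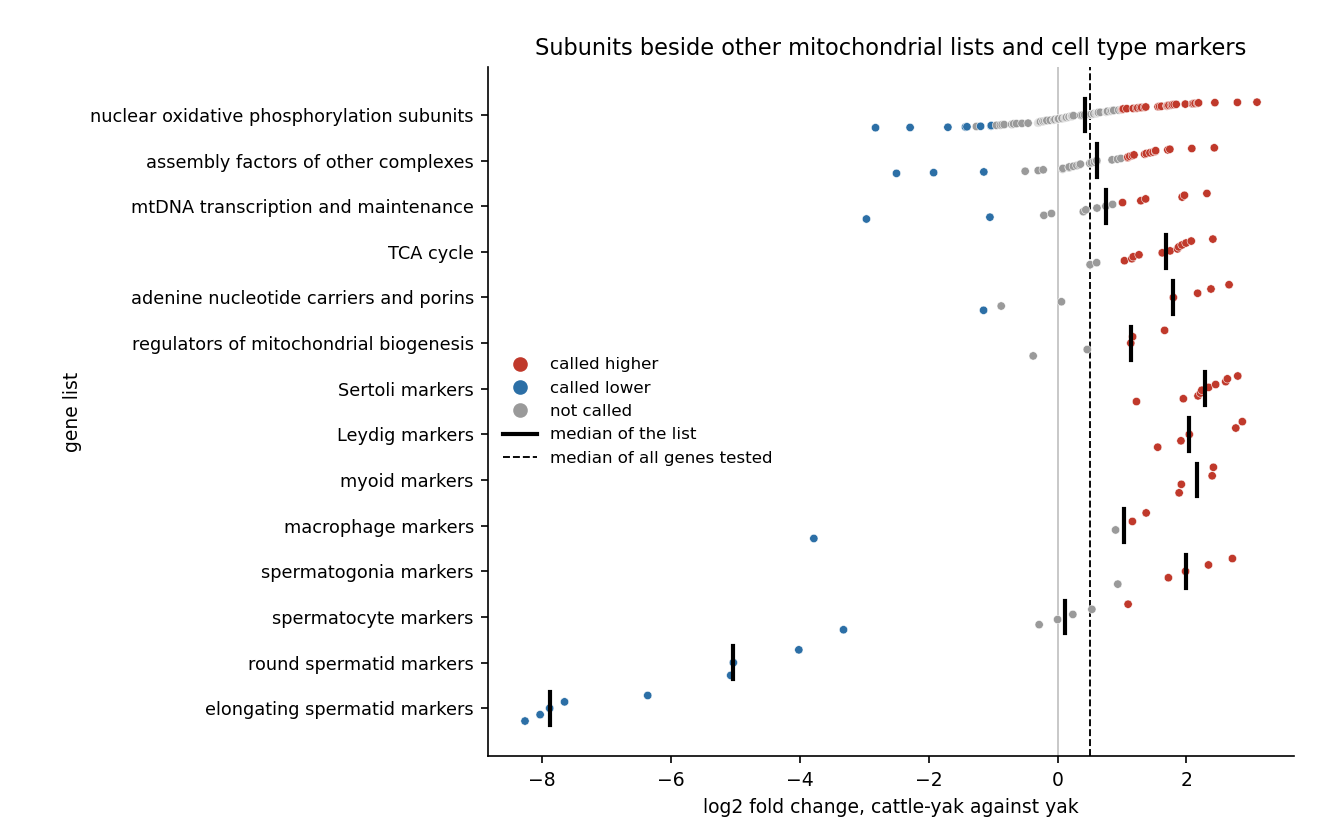
Log2 fold change (cattle-yak against yak, log2 of FPKM + 1) of each tested gene in the nuclear subunits, other mitochondrial lists and cell type marker lists; points are genes, black bars are list medians and the dashed line is the all-gene median of 0.51. TCA cycle genes had a median of 1.69 and Sertoli markers of 2.29, with elongating spermatid markers at -7.89; the median of the subunits was 0.42 as deposited and -0.15 after median-of-ratios scaling.

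Markers of the main somatic cells of the testis were higher in cattle-yak beside the nuclear genes that rose. For these lists and the following ones, the shares over all genes tested were 33.4% higher and 20.8% lower as deposited. They were 17.6% and 27.9% with median-of-ratios scaling. All 10 Sertoli cell markers were called higher, 9 of them with median-of-ratios scaling too, and their summed level was 1710.1, 2014 and 2006 FPKM in cattle-yak and 381, 329 and 396 FPKM in yak, with INHA the most abundant in all but yak 9 and 10, where DMRT1 was. Of 7 Leydig cell markers, 5 were in the table and all 5 were called higher, 4 with median-of-ratios scaling, with sums of 12397, 11816 and 10413 FPKM in cattle-yak and 4856, 3333 and 3519 FPKM in yak, led by INSL3. All 4 myoid cell markers were called higher with both scalings, with sums of 529, 707 and 535 FPKM in cattle-yak and 130.2, 105 and 110.3 FPKM in yak, led by ACTA2. The medians of these 3 lists, 2.29, 2.05 and 2.16, or 1.75, 1.45 and 1.56 with median-of-ratios scaling, lay above that of the nuclear subunits with both.

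Spermatogonial markers were called higher in 4 of 5 cases with both scalings, with sums of 280.0, 338 and 339.6 FPKM in cattle-yak and 67.4, 66.8 and 80.3 FPKM in yak, led by UCHL1. Of 6 spermatocyte markers, 1 was called higher and 1 lower, and only the lower call was made with median-of-ratios scaling. Their sums did not overlap, at 279, 167 and 268 FPKM in cattle-yak and 311, 292 and 307 FPKM in yak, led in yak by PIWIL1, the gene called lower, and in cattle-yak by SYCP3, the gene called higher as deposited. The lower sum in cattle-yak rested on PIWIL1, at 15.7 ± 9.29 FPKM against 148 ± 14.2 FPKM in yak (SD over 3 animals). Of 4 macrophage markers, 2 were called higher, neither with median-of-ratios scaling, and AIF1 was called lower with both, with sums of 29.3, 40.0 and 28.9 FPKM in cattle-yak and 79.2, 71.7 and 66.5 FPKM in yak, led by AIF1 in yak and by CD163 in cattle-yak, and here too the lower sum in cattle-yak rested on 1 gene, AIF1. Of 3 red blood cell markers, 2 were in the table, HBA and ALAS2, with sums of 0.599, 0.141 and 0.475 FPKM in cattle-yak and 0.300, 0.582 and 0.667 FPKM in yak, and ALAS2 was at 0 in every library but yak 9. The part of these cell types in the levels of the nuclear and MT- genes was not tested.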

How the data were processed

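Testis libraries of 3 cattle-yak and 3 yak, grouped by the labels, were compared. As deposited by the authors, the values are FPKM in 1 table, whose 6 columns were matched to the animals by title. The submitters' processing notes name HISAT2, Cufflinks and DESeq, whose versions are not given in the sources used here, and the study's methods give the yak genome for both groups. Whether Cufflinks made these FPKM is uncertain, since whole fragments (tolerance 0.03) were recovered from their steps for each of the 17973 genes that had 2 or more values above 0. The depths, gene model lengths and fragment numbers given here were inferred by this recovery. On simulated data the recovery returned 97.7% of 17628 genes. Depending on the library, 1 fragment over 1 kb gave 0.0761 to 0.0895 FPKM.

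The test was run in R 4.3.3 on log2 (FPKM + 1) for genes whose mean reached 0.5 FPKM. It used the lmFit and eBayes functions of limma 3.58.1 with a trend, was two-sided, and was adjusted by Benjamini-Hochberg over the 15042 genes tested. Tested on simulated data for this comparison (13802 genes), limma called 186 of 197 tested genes changed 4-fold and 1 unchanged gene. Only 200 genes were changed there, up or down at random. The simulation thus held no overall shift like the all-gene median of 0.51 here, and did not test the effect of the scaling. Isoform ratios were compared by exact permutation tests, and tables and figures were made with Python 3.11.15, numpy 2.4.6, pandas 2.3.3, scipy 1.17.1 and matplotlib 3.10.9.

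The members and lists were chosen with earlier results of these data known. Named genes were the isoform pairs, all MT- genes, in each complex the most abundant gene by the mean of all libraries and those with the highest and lowest fold change, the 5 called nuclear-named genes with the largest change in each direction, and genes at the extremes of the lists. Other members named (among them SDHC, SDHD, NDUFS1, NDUFA9, NDUFB4, NDUFAF4, CYC1, UQCRQ, UQCRC2, COX8B and ATP5F1B) were chosen after their values were seen. In pairs and lists the most abundant gene of a symbol was used. Alternatives were scaling by median-of-ratios, to TPM or by the sum of genes not named MT-, a pseudocount of 0.1, a filter at 5 FPKM or none, limma without trend, voom on recovered fragments and leaving out each library.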

Additional observations from a re-analysis of the deposited data

How the results depend on the processing

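With median-of-ratios scaling 2655 genes were called higher, and 21 oxidative phosphorylation genes were called higher and 21 lower. The all-gene median was then 0.00678, and it was 0.62 with a pseudocount of 0.1 and 0.63 with voom. The median of the nuclear subunits was 0.42 as planned, 0.26 without a filter, 0.54 at a minimum of 5 FPKM, 0.50 with voom and, reversed, -0.15 with median-of-ratios scaling, and leaving out single libraries gave 0.36 to 0.50. Without a filter the median over all 18918 genes was 0.19, so that the subunits then lay above it. The MT- median was 1.21 as planned, 1.95 with a pseudocount of 0.1, 1.94 at a minimum of 5 FPKM, 1.95 with voom and 0.71 with median-of-ratios scaling, and 0.99 to 1.57 when single libraries were left out. Named genes were compared by sign and call only, whatever the shift in value. Of 61, median-of-ratios scaling reversed the sign of 3, left sign and call of 42, added the call of 7 and removed that of 9. The 3 reversed were COX8C at -0.61 and ATP5MD at -0.35 (ENSBGRG00000009559) and -0.19 (ENSBGRG00000021719). The most abundant NDUFA2 gene, which was not among the 61, was reversed as well, at -0.22. TPM scaling, scaling by the sum of genes not named MT-, a pseudocount of 0.1 and voom each left sign and call of 60 and added 1 call, and limma without trend and no filter left sign and call of all 61. At a minimum of 5 FPKM, 55 had the same sign and call and the others were not tested. Leaving out single libraries gave 34 to 37 of the selected genes called higher and 8 to 12 called lower, and reversed COX8C (-0.0922 to 0.13), the minor MT-CYB gene (-0.79 to 0.35) and ATP5MD (ENSBGRG00000009559; -1.23 to 1.21). The differences in log2 isoform ratio ranged over the alternatives run for them, which leave out limma without trend, from -3.10 to -2.50 for COX6B2 to COX6B1, -4.73 to -4.16 for COX7B2 to COX7B, -1.92 to -1.55 for COX8C to COX8A and -2.70 to -2.38 for CYCT to CYCS. No paired analysis was possible because the labels give the groups no shared numbers. With 3 animals per group, genotype, place and possibly collection coincided, the cause was not tested, and genes that share a symbol may share reads.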

Other observations

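A gene without a symbol (ENSBGRG00000025835), with a model of 75 bases, stood at 9322, 5528 and 6371 FPKM in cattle-yak and 361, 221 and 185 FPKM in yak. Its log2 fold change was 4.81 (SE 0.27; limma, Benjamini-Hochberg adjusted p = 1.35e-06), close to that of the main MT-CYB gene. It was chosen after its values were seen, and its identity was not tested.

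ATP5MD stood on 3 genes. The most abundant was at 65.9, 74.8 and 80.4 FPKM in cattle-yak and 57.2, 45.3 and 63.1 FPKM in yak. Of the others, 1 (ENSBGRG00000009527) was at 1.43, 21.2 and 0 FPKM in cattle-yak and 7.31, 0.862 and 47.0 FPKM in yak, and 1 (ENSBGRG00000009559) at 1.91, 2.53 and 54.5 FPKM in cattle-yak and 2.58, 31.9 and 2.61 FPKM in yak. In cattle-yak 6 and 7 and yak 9 and 10, 1 of these 2 was much higher than the other, which was not so in cattle-yak 5 and yak 8, and the cause was not tested.

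A single library also stood apart for 3 more genes chosen after their values were seen. ATP5ME was at 189.7, 174 and 191 FPKM in cattle-yak and 26.4, 23.0 and 156 FPKM in yak, so that yak 10 lay near the cattle-yak. It was called higher, but not without yak 8 (1.60) or yak 9 (1.50), nor with median-of-ratios scaling (1.37). A second ATP5ME gene (ENSBGRG00000020937) was at 81.4, 70.8 and 75.1 FPKM in cattle-yak and 80.3, 80.8 and 64.3 FPKM in yak. Its groups overlapped, its log2 fold change was 0.02, and it was not called with either scaling. In yak 8 and yak 9 it lay above the first gene. UQCRB was at 82.3, 21.5 and 24.9 FPKM in cattle-yak and 16.7, 15.4 and 20.5 FPKM in yak, and was called only without cattle-yak 6 (1.33) or 7 (1.23). NDUFAF8 was at 52.2, 17.1 and 16.1 FPKM in cattle-yak and 36.5, 29.2 and 42.8 FPKM in yak, and was called lower without cattle-yak 5 (-1.06) and, with all libraries, with median-of-ratios scaling (-1.13).

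The KEGG oxidative phosphorylation annotation of the table covered 109 of the 127 selected genes and none of the 5 MT- genes.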
